A study of Mus musculus with 15 samples.

Results

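DNA methylation writers, erasers and readers were followed here as 9 listed genes: Dnmt1, Uhrf1, Dnmt3a, Dnmt3b, Tet1, Tet2, Tet3, Mbd2 and Mbd3. They were chosen by name, and 8 of the 9 are among the 21889 genes of the deposited gene counts. Mbd3 is not in that table, and its values come from a separate deposited table of counts per transcription start site model (start site table). All 8 members of the gene table passed the filter on low counts. RNA-seq of poly(A) RNA was made from mouse cerebellum, with 3 libraries in each of 5 groups. Granule neuron precursors (GNPs), the proliferating progenitors of cerebellar granule neurons, were sampled at 4 ages: E15.5 with the genotype label Math1-GFP, and P1, P7 and P14 labelled wild type (WT). The fifth group was medulloblastoma cells (MB), a cerebellar tumour, from Ptch1 heterozygous mice, with no age given. The precursors and the tumour cells were all enriched on Percoll density gradients, so the E15.5 group differs from P1 in genotype label as well as age, and MB differs from P7 and P14 in genotype. Math1, also named Atoh1, marks the granule lineage, and the labels do not say whether GFP was used to select cells. The labels do not say whether replicates came from separate litters or tumours, so p-values measure the spread between these libraries.

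DNA methylation is the addition of a methyl group to cytosine, in mammals mostly where a C is followed by a G (CpG). Dnmt1 copies methylation onto the new strand after replication, and Uhrf1 recognises the half-methylated DNA and brings Dnmt1 to it. Dnmt3a and Dnmt3b place methylation on unmethylated DNA (de novo methylation). Tet1, Tet2 and Tet3 oxidise methylcytosine to hydroxymethylcytosine and further products, which base excision repair can replace by plain cytosine, and hydroxymethylcytosine is known to be abundant in neurons. Mbd2 binds methylated CpG, Mbd3 is its close relative with little affinity for methylated DNA, and each is a subunit of the NuRD complex, which removes histone acetyl groups and moves nucleosomes. Only RNA was measured, not methylation.

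The promoters of the maintenance pair are shown because Dnmt1 and Uhrf1 moved together across the groups, and that of Dnmt3a is shown beside them as a writer that was called in no comparison as tested here. RefSeq windows (GRCm38.p6) from 250 bases before to 50 bases after each annotated start were found for 8 members, 13 windows in all, without Mbd2. Each was searched on both strands for the E2F words TTTCGCGC and TTTGGCGC, E2F being the factor family that acts on many S phase genes. Capitals mark these words on either strand, and sequences read 5′ to 3′ on the gene's strand.
Dnmt1, chr9:20952574-20952873, minus strand: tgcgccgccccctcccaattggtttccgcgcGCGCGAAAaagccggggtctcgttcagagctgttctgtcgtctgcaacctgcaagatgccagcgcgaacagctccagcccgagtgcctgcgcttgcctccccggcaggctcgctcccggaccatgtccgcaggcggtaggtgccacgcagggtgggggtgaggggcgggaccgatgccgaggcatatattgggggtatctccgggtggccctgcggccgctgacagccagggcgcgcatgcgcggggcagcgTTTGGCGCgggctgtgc
Uhrf1, chr17:56304063-56304362, plus strand: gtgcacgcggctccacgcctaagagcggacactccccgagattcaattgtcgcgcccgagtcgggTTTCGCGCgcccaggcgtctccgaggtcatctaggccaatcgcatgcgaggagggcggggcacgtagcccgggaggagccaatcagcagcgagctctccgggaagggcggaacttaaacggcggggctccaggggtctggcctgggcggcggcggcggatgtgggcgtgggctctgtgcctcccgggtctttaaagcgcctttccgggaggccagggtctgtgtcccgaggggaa
Dnmt3a, chr12:3806730-3807029, plus strand: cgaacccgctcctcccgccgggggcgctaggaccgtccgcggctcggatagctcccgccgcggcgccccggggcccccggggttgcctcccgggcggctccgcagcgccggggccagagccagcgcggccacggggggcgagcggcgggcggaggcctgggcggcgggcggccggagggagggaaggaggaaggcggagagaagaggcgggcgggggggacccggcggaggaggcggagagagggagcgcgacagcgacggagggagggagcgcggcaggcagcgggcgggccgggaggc
The words were in 2 of the 13 windows, those printed for Dnmt1 and Uhrf1, against 0.813% of all 32851 windows. Both words contain CG, and that share is over windows of any CpG content, so it is not a like background for CpG-rich windows. The Dnmt1 window holds 1 word 219 bases before its start and another 33 bases after it, and the Uhrf1 window holds 1 word 185 bases before its start. The printed Dnmt1 start lies downstream of the start of the counted Dnmt1 transcript, and the printed Uhrf1 start is that of 1 of the 2 counted Uhrf1 transcripts. The printed windows hold 33 CpG in Dnmt1, 33 in Uhrf1 and 46 in Dnmt3a, where the median over all windows is 7. They were chosen after the words were found: the other windows of Dnmt1 hold 2 and 12 CpG and the other one of Uhrf1 holds 12, none with a word, and the Dnmt1 window with 12 is that of the counted transcript's start. A word match describes letters only, and windows without one say nothing about the factor.

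Depth was 12597472 to 43443132 counts in genes per library, with the shallowest library E15.5 replicate 2. Levels are CPM, the counts relative to the TMM-scaled library size, in the usual per-megaread unit, and tests are edgeR quasi-likelihood tests with Benjamini-Hochberg adjustment over 15259 genes (FDR), called under 0.05. E15.5 replicate 3 stands apart by gene length: long genes, with at least 8000 exon bases, lay at a median of -0.85 (log2) against its group-mates, and short genes, under 2000 bases, at 0.67. P1 replicate 3 differed from P1 replicates 1 and 2 in summed oligodendrocyte markers (9 genes), at 3819 CPM against 587 and 968 CPM. Its granule neuron maturation genes (17) had a mean log2 CPM of 7.55, against 5.63 and 5.99. The libraries were also split by the gene Tsnax, whose gene count was under 10% of its transcript count in 6 of them. These were E15.5 replicates 1 and 3, all P7 and MB replicate 1. In the other 9 that share was 92.4% to 94.8%. The parts are called counting sets here, and the split rests on this gene alone. For all 8 members the ratio of gene to transcript counts overlapped between the sets, but P7 lies wholly in the first set and P1 and P14 wholly in the second, so that set and age cannot be told apart there. Summed astroglia markers (8 genes, all tested) ran from 334 to 503 CPM at E15.5, were 2312 to 5267 CPM over the postnatal libraries and 1520.3 to 2137 CPM in MB. Endothelial markers (7 genes) summed to 13.4 to 35.1 CPM at E15.5 and 406 to 613 CPM at P1. They summed to 304 to 363 CPM at P7, 756 to 784 CPM at P14 and 19.3 to 35.4 CPM in MB. Oligodendrocyte markers (9 genes) summed to 69.4 to 103 CPM at E15.5, 587 to 3819 CPM at P1 and 947 to 1870 CPM at P7. They summed to 5873 to 6310.4 CPM at P14 and 653 to 957 CPM in MB. Choroid plexus markers (6 genes) summed to 97.1 to 386 CPM at E15.5, 409 to 10566 CPM at P1 and 51.2 to 2023 CPM at P7. At P14 they summed to 5167 to 8562 CPM, and in MB to 53.4 to 276 CPM. The part of endothelial, oligodendrocyte and choroid plexus cells in the P14 values below was not tested. The precursor identity list, 8 of 8 genes tested, summed to 2313 to 4960 CPM over all groups. Single genes of that list changed by -1.36 to 0.043 (log2) from P7 to P14, with 2 called lower. For MB against P14 they changed by -1.17 to 4.55, with 4 called higher and 2 lower. The 17 granule neuron maturation genes had a mean log2 CPM of 6.38 to 6.55 at P7 and 7.83 to 8.005 at P14. Of these, 7 were called higher at P14 than at P7 and 0 lower, where 10.3% of all genes were called. Their part in the P14 values below was not tested. In such bulk samples, fewer cells of a type and less RNA per cell cannot be told apart.

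Of the 8 members, 3 were called between E15.5 and P1 (46.3% of all genes tested), none between P1 and P7 (3.15% of all genes), 2 between P7 and P14 (10.3%) and 2 between P1 and P14 (8.94%). In MB, 2 were called against P7 (34.5%) and 3 against P14 (50% of all genes). In the test for any difference among the 4 ages, 5 were called: Uhrf1 (FDR 0.0019), Dnmt1 (0.00694), Tet2 (0.00806), Tet1 (0.0169) and Mbd2 (0.0428), where 55.7% of all genes were called. The maintenance genes Dnmt1 and Uhrf1 were lower at P14 and higher in MB, Tet1 and Tet2 were higher at P1 than at E15.5, Tet3 was higher in MB than at P14, and Mbd2 was lower at P1 than at E15.5. Dnmt3a and Dnmt3b were called in no comparison under these settings.

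**Figure D1:**
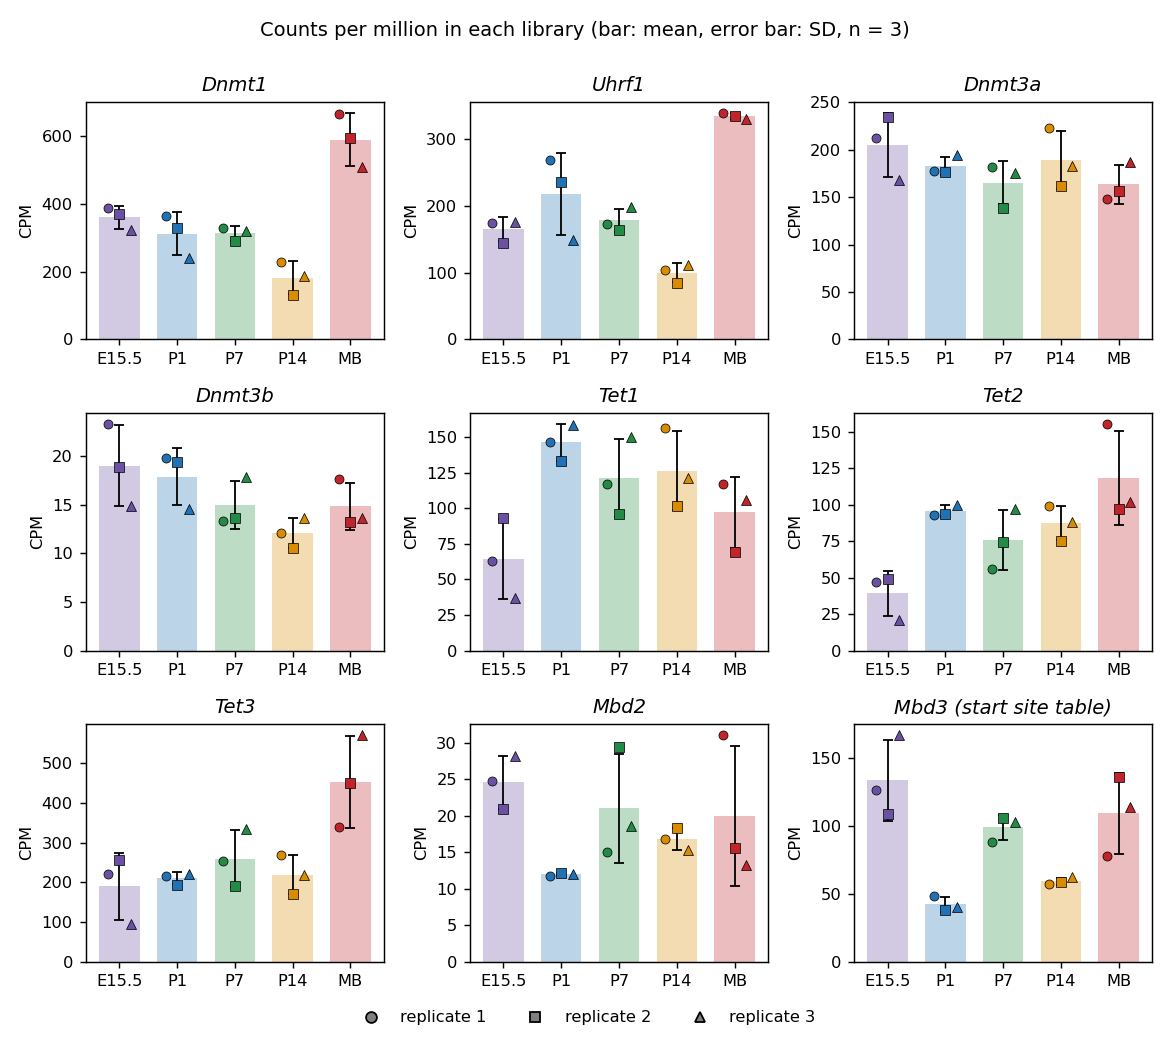
CPM of each member in the 15 libraries, by group, with points for libraries, bars for means and error bars for the SD (n = 3); Mbd3 is from the start site table. MB libraries lie above all 12 precursor libraries for Dnmt1, Uhrf1 and Tet3, and the P14 libraries are the lowest group for Dnmt1 and Uhrf1.

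Dnmt1 (ENSMUSG00000004099) has a deposited transcript model of 39 exons at chr9:20711650-20757317 (mm9, minus strand). It measured 388, 371 and 323 CPM in E15.5 replicates 1 to 3, 364, 330.1 and 241 at P1, 329.5, 289 and 321 at P7, and 230.0, 132 and 187 at P14. The MB libraries held 666, 595 and 509 CPM. All 3 MB libraries thus lay above the 12 precursor libraries, which reached 388, and all P14 libraries lay below the other precursors. Means were 313 ± 21.1 CPM at P7, 183 ± 49.3 at P14 and 589.7 ± 78.6 in MB (SD, n = 3 each).

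Uhrf1 (ENSMUSG00000001228) has 2 deposited transcript models of 17 exons at chr17:56442823-56462909 (mm9, plus strand). Its libraries held 174, 144 and 176 CPM at E15.5, 268, 235 and 149 at P1, 173, 164 and 197 at P7, and 104, 83.6 and 111 at P14. In MB they held 338, 334 and 329 CPM, the narrowest spread of the gene in any group (334 ± 4.57, SD, n = 3). P14 was again below every other library and MB above every other. P1 replicate 3 was the lowest P1 library for Uhrf1 and for Dnmt1.

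The fall to P14 was called for both maintenance genes from P1 and from P7. Uhrf1 fell by 1.13 (log2, SE 0.20, edgeR FDR 0.00558) from P1 and by 0.84 (SE 0.20, FDR 0.0198) from P7. Dnmt1 fell by 0.77 (SE 0.21, FDR 0.0378) from P1 and by 0.78 (SE 0.21, FDR 0.0320) from P7. These calls rest on full groups: from P7, the Uhrf1 call was lost when any 1 library other than P7 replicate 1 was left out (FDR 0.0511 to 0.103) and the Dnmt1 call when any 1 other than P14 replicate 1 was left out (0.0675 to 0.152), with the direction kept. From P1, the Uhrf1 call was lost only without P14 replicate 2 (FDR 0.0507), and the Dnmt1 call without P1 replicate 1 or 2 or P14 replicate 2 or 3 (0.117 to 0.197). From E15.5 to P1 and from P1 to P7 neither gene was called, with Uhrf1 at 0.40 (SE 0.20) and -0.29 (SE 0.20), and Dnmt1 at -0.21 (SE 0.21) and 0.01 (SE 0.21). Without P1 replicate 3, Uhrf1 was called higher at P1 than at E15.5 (0.61).

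In MB the maintenance genes rose against P7, Uhrf1 by 0.91 (log2, SE 0.20, edgeR FDR 0.00223) and Dnmt1 by 0.91 (SE 0.21, FDR 0.00346). Against P14 the differences were 1.74 for Uhrf1 (SE 0.20, FDR 6.46e-06) and 1.69 for Dnmt1 (SE 0.22, FDR 1.53e-05). No alternative setting or left-out library ended these 4 calls. Markers of other and more mature neurons were lower in MB. Of the 17 granule neuron maturation genes, 11 fell in MB against P7 (median -1.23) and 16 against P14 (median -2.31). Over all genes, 34.5% were called in either direction against P7 and 50% against P14. Purkinje cell markers summed to 29.3 to 45.2 CPM in MB, against 338 to 932 CPM at P7 and 261 to 426 CPM at P14, with 6 of 7 lower in each comparison. GABAergic interneuron markers summed to 89.6 to 144 CPM in MB, against 286 to 407 CPM at P7 and 264 to 346 CPM at P14, with 5 of 6 lower against P7 and 6 of 6 against P14. Their part in the MB differences of the members was not tested.

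**Figure D2:**
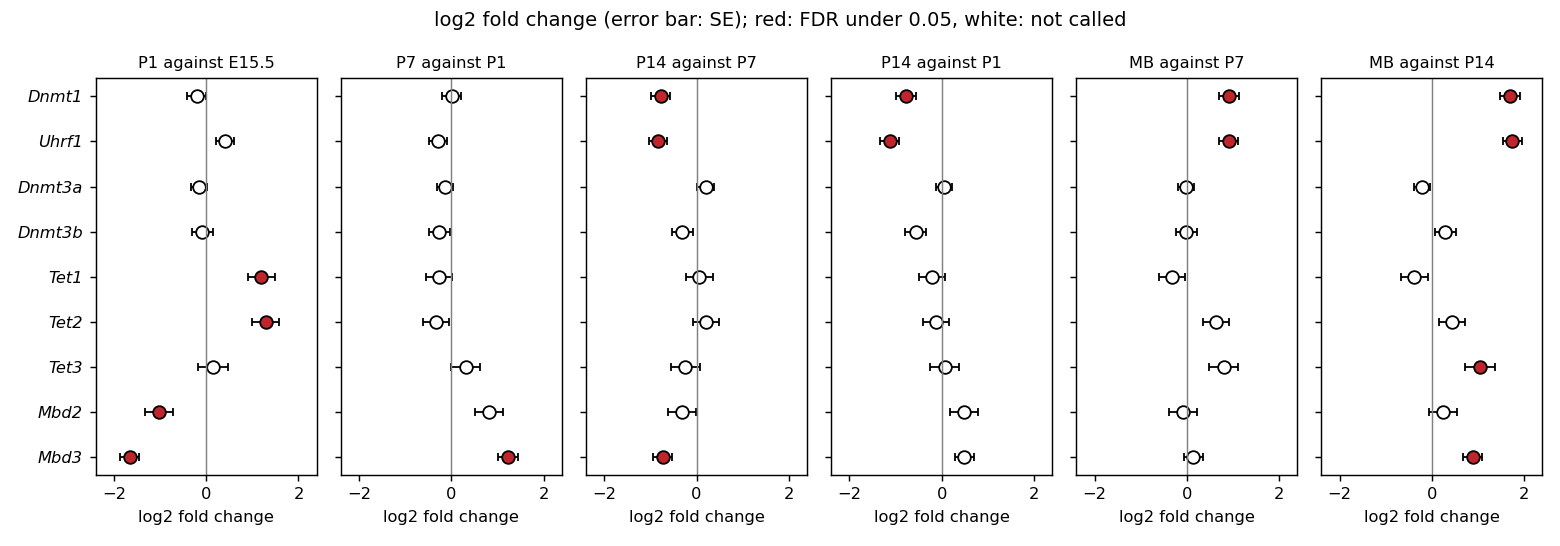
Fitted log2 fold change of each member in the 6 comparisons (points) with its SE, derived from the F-test (bars). Red points are called at an FDR under 0.05 and white points are not. Dnmt1 and Uhrf1 lie left of 0 in both P14 panels and right of 0 in both MB panels, and the changes of Dnmt3a and Dnmt3b stay between -0.57 and 0.29.

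The level of the maintenance genes ran alongside that of S phase genes, and genes of G2 and mitosis moved in the same directions at P14 and in MB. The S phase list, genes of replication origins and DNA synthesis, had 14 of its 16 genes tested: 9 fell from P7 to P14 (median of the list -0.99, over all genes -0.005), 13 fell from P1 to P14 (median -1.01, over all genes 0.0052), 11 rose in MB against P7 (median 0.95, over all genes 0.019) and 14 in MB against P14 (median 1.95, over all genes 0.012). With single libraries left out, 2 to 8 fell from P7 to P14, fewest without P14 replicate 2, and 3 to 14 from P1 to P14, with 3 without P1 replicate 1 or P14 replicate 2. Of the G2 and mitosis list (8 genes, all tested), 5 fell from P7 to P14 (median -0.88) and 4 from P1 to P14 (median -0.88). In MB, 3 of that list rose against P7 (median 0.58) and 8 against P14 (median 1.45). Single libraries left out gave 0 to 3 fallers from P7 to P14 and 1 to 6 from P1 to P14. They gave 1 to 4 risers in MB against P7. Over all genes, 10.3% were called from P7 to P14, 8.94% from P1 to P14, 34.5% in MB against P7 and 50% against P14. Mcm6, a subunit of the replicative helicase, fell by 1.63 from P1 to P14 and rose by 1.26 in MB against P7. Over the 15 libraries log2 CPM spanned 2.01 for Uhrf1 and 2.34 for Dnmt1. Taken relative to the mean log2 CPM of the S phase list, Uhrf1 stayed between 0.87 and 1.41, a span of 0.54, and Dnmt1 between 1.75 and 2.55, a span of 0.80. For Dnmt3a the span was 0.75 before and 2.56 after this step, and for Tet1 it went from 2.10 to 3.37. The spans include differences between the 5 groups and are descriptions without a test.

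**Figure D3:**
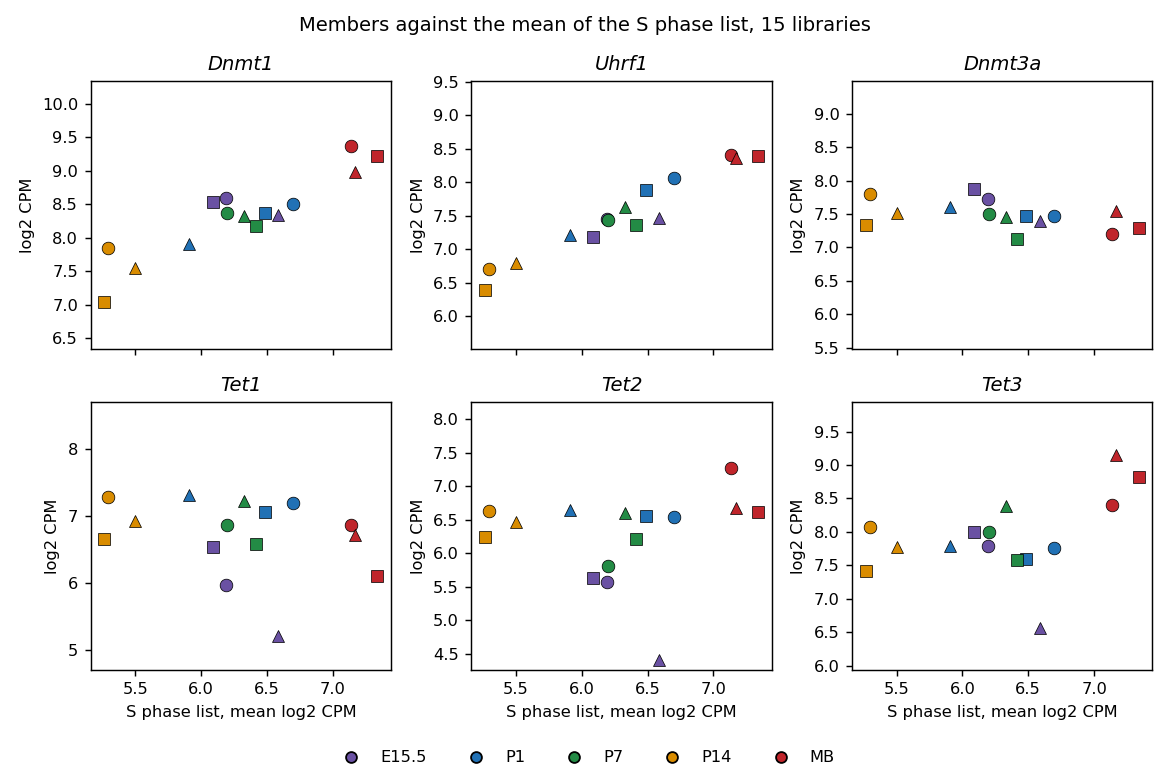
log2 CPM of 6 members (vertical axes, 4 log2 units in each panel) against the mean log2 CPM of the 14 tested S phase genes (horizontal axis); each point is a library, coloured by group, with circles, squares and triangles for replicates 1 to 3. Dnmt1 and Uhrf1 rise from the P14 libraries at the left to the MB libraries at the right, while Dnmt3a stays within 0.75 log2 units.

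The genes whose log2 CPM followed a maintenance gene most closely over the 15 libraries, among 11575 genes averaging at least 5 CPM, were Nolc1 (Pearson r 0.98), Lig1 (0.97) and Sin3a (0.97) for Dnmt1 and Cdca7 (0.98), Pask (0.97) and Mycn (0.96) for Uhrf1. Dnmt1 and Uhrf1 themselves had r 0.92. These values share the 5 groups, so they include differences between groups, and correlations within groups were not computed. Lig1, the DNA ligase of replication, Cdca7 and Hells, which form a nucleosome remodeller needed for methylation of heterochromatin, belong to the list of methyltransferase cofactors, of which 6 of 8 genes were tested. Of the 6, these 3 fell from P1 to P14 (Hells -1.41, Cdca7 -1.39, Lig1 -1.09) and from P7 to P14, with a list median of -0.59 and -0.81, and they were the 3 called higher in MB against P7 (Cdca7 1.36, Hells 1.01, Lig1 0.85). Against P14, 5 of 6 rose in MB (list median 1.35), with Cdca7 at 2.33, Hells at 2.303, Lig1 at 1.96 and Usp7, a deubiquitinase that binds Dnmt1 and Uhrf1, at 0.74. Without P14 replicate 2, 0 of the list fell from P7 and 1 from P1. Against P14, 3 rather than 5 rose in MB without P14 replicate 2 or without MB replicate 1. Over all genes, 46.3% were called from E15.5 to P1, 10.3% from P7 to P14 and 8.94% from P1 to P14. In MB, 34.5% of all genes were called against P7 and 50% against P14. The Hells call in MB against P7 was lost in 4 alternatives, and the difference was 0.57 (FDR 0.179) without MB replicate 1. The Hells calls at P14 were each lost without any 1 of 5 libraries, and the Usp7 call in 4 alternatives. From E15.5 to P1 the Dmap1 call, -0.74, was the single call of the list, and within the counting set, which leaves 1 library at E15.5, it was lost (-0.16, FDR 0.619).

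The de novo enzymes gave no call. Dnmt3a (ENSMUSG00000020661) has a transcript model of 23 exons at chr12:3807030-3914443 (mm9, plus strand). It measured 212, 234 and 168 CPM at E15.5 and 178, 176 and 194 at P1. It was at 181, 139 and 175 at P7, and 223, 162 and 183 at P14. It was at 148, 156 and 187 CPM in MB, inside the precursors' range of 139 to 234. Every group overlapped every other. Its differences were -0.01 (log2, SE 0.18, edgeR FDR 0.965) for MB against P7 and 0.05 (SE 0.18, FDR 0.883) for P14 against P1. When each library's length trend was removed, an alternative added after the data were seen, Dnmt3a was called lower at P1 than at E15.5 (-0.56, FDR 0.00642), against -0.16 without that step.

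Dnmt3b (ENSMUSG00000027478) has a transcript model of 20 exons at chr2:153475189-153513466 (mm9, plus strand). It was at 23.2, 18.9 and 14.9 CPM at E15.5 and 19.8, 19.3 and 14.5 at P1. At P7 it measured 13.4, 13.7 and 17.8, at P14 12.1, 10.6 and 13.6, and in MB 17.6, 13.2 and 13.6 CPM. The P14 libraries lay below those of E15.5 and P1, the other groups overlapped, and no difference was called, the largest being -0.57 (log2, SE 0.23, edgeR FDR 0.122) for P14 against P1. Fitted on those 2 groups alone, that difference was called. For MB against P7 it was -0.01 (SE 0.23).

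Set per kilobase of exon, the scale on which levels of different genes can be compared, Dnmt1 and Uhrf1 were the top members in each group. In MB they reached 112 and 93.6 CPM per kb, and at P14 34.7 and 27.9. Their order changed at P1 alone, where Uhrf1 had 61.0 ± 17.3 and Dnmt1 59.2 ± 12.1 (SD, n = 3), a gap smaller than either spread. Dnmt3a (16.9 to 21.1 CPM per kb as group means) and Tet3 (17.5 to 41.6) came next, except that Mbd2 (19.1) stood above Tet3 (17.5) at E15.5, within the spread of Tet3. Dnmt3b was the lowest member from P1 to MB, at 3.05 to 4.52 CPM per kb. At E15.5 Dnmt3b (4.80), Tet1 (4.59) and Tet2 (4.27) lay within each other's spread. Among 14494 tested genes with a length, Dnmt1 stood at percentile 96.7 in MB and 84.4 at P14, and Dnmt3b at percentile 27.2 to 38.5.

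**Figure D4:**
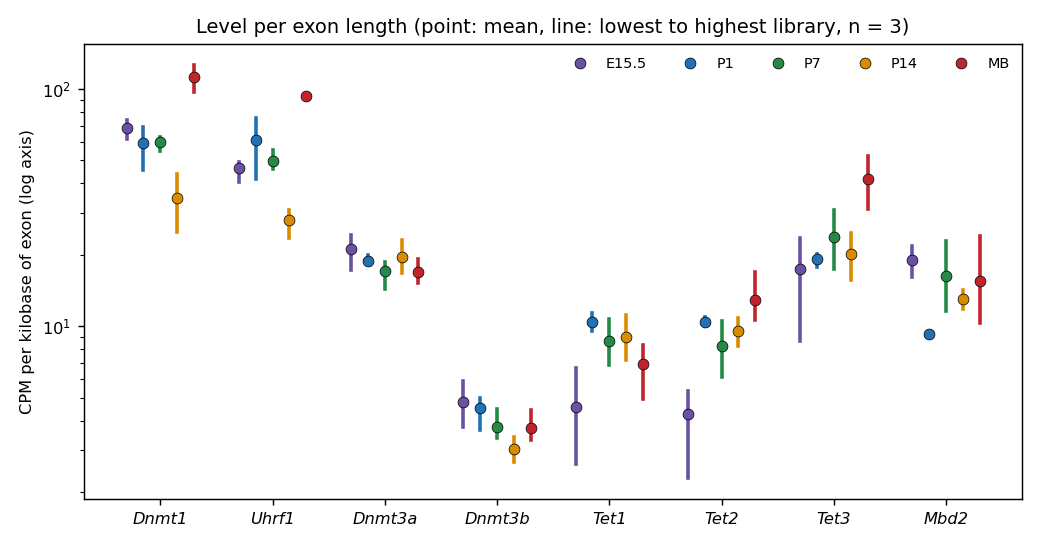
CPM per kilobase of exon on a log axis for the 8 members of the gene table; points are group means, lines run from the lowest to the highest library (n = 3). Dnmt1 and Uhrf1 are the top members in every group and span the widest gap between P14 and MB, and Dnmt3b lies at 3.05 to 4.80.

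The balance of maintenance to de novo enzyme moved with Dnmt1. Per kilobase, the Dnmt1 level was 2.92 to 3.54 times that of Dnmt3a in E15.5 libraries, 2.28 to 3.77 at P1, 3.34 to 3.83 at P7, 1.49 to 1.90 at P14 and 5.01 to 8.29 in MB. The P14 range lay below every other library and the MB range above, while the other 3 ages overlapped. The ratio of Dnmt1 to Uhrf1 stayed between 0.92 and 1.74 over all libraries.

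Among the oxidases, Tet1 and Tet2 rose between E15.5 and P1. Tet1 (ENSMUSG00000047146) has a transcript model of 11 exons at chr10:62267318-62342762 (mm9, minus strand). It measured 62.9, 93.0 and 36.9 CPM at E15.5 and 147, 133 and 159 at P1. It was at 117, 96.3 and 150.4 at P7, and 156, 101 and 122 at P14. In MB it was at 117, 69.0 and 106 CPM. All 9 postnatal libraries lay above the 3 E15.5 libraries, and MB overlapped each group but P1. Tet1 rose by 1.19 (log2, SE 0.29, edgeR FDR 0.00421) from E15.5 to P1.

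Tet2 (ENSMUSG00000040943) has a transcript model of 11 exons at chr3:133126643-133207354 (mm9, minus strand). It was at 47.3, 49.2 and 21.0 CPM at E15.5 and 93.1, 93.9 and 100.2 at P1. It measured 56.2, 74.3 and 97.1 at P7, 99.1, 75.5 and 88.0 at P14, and 155, 97.5 and 102 in MB. The postnatal and MB libraries all exceeded the E15.5 ones, and the MB values overlapped with P1 and P14 and lay just above P7. The rise from E15.5 to P1 was 1.29 (log2, SE 0.29, edgeR FDR 0.00221). MB against P7 gave 0.64 (SE 0.29, FDR 0.0991), not called. It was called with length trends removed (0.80, FDR 0.00277) and within the counting set (1.03, FDR 0.0291), where MB replicate 1 is the single MB library. MB replicate 1 was the highest Tet2 library and also had the highest sum of microglia and macrophage markers, 659.5 CPM, against 218 as the lowest in MB and 52.5 to 158 at P7; the part of these cells in the Tet2 value was not tested.

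Tet3 (ENSMUSG00000034832), with a transcript model of 11 exons at chr6:83312367-83391669 (mm9, minus strand), showed another pattern. Its E15.5 libraries held 220.2, 256 and 95.0 CPM, those of P1 217, 194 and 220.5, those of P7 255, 191 and 335, and those of P14 269.8, 171 and 219. MB libraries held 339, 451 and 571 CPM, above all 12 precursor libraries, though the lowest exceeded the highest P7 library only narrowly. Tet3 rose by 1.04 (log2, SE 0.32, edgeR FDR 0.0129) in MB against P14, a call lost without P14 replicate 2 (0.89) or MB replicate 3 (0.85). Against P7 the difference of 0.80 (SE 0.32, FDR 0.0629) was not called, but it was with DESeq2 (0.82, FDR 0.0389), without P7 replicate 3 (1.02) or without MB replicate 1 (0.97). Among ages Tet3 was not called (FDR 0.591).

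Within E15.5, the values of the long Tet genes ran in the same library order as long genes in general, highest in replicate 2. In E15.5 replicate 3, Tet1, Tet2 and Tet3 were each lowest of the group, as were long genes in general. Over all genes the median change from E15.5 to P1 was 0.32 (log2) for long and -0.35 for short genes. Without that library, the rise was 0.86 for Tet1 and 0.94 for Tet2, still called. With the length trend of each library removed, it was 0.78 (edgeR FDR 0.000339) and 1.00 (FDR 0.000478), and Tet3 turned from 0.15 to -0.17. Within the counting set that E15.5 replicate 2 shares with P1, which leaves 1 library at E15.5, the rise was 0.65 for Tet1 (FDR 0.185) and 0.96 for Tet2 (FDR 0.0774), neither called. Markers of glia, endothelium and pericytes were higher at P1 than at E15.5, and their part in the Tet rise was not tested.

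**Figure D5:**
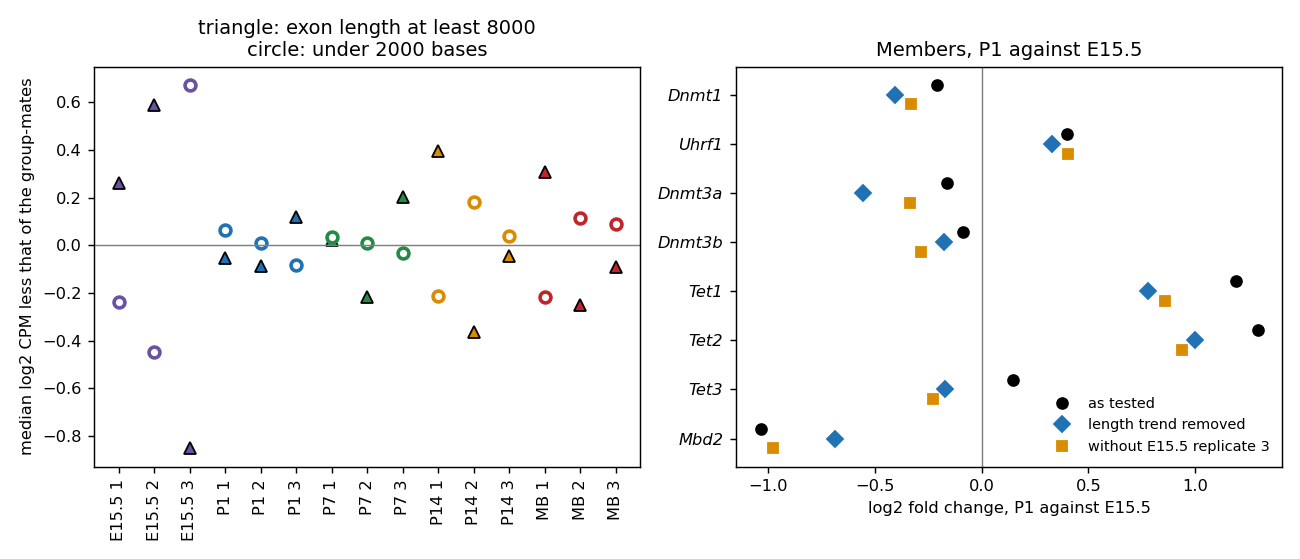
Left, for each library, the median log2 CPM of 600 long genes (triangles) and 3422 short genes (open circles) less that of the group-mates; right, the log2 change of the members from E15.5 to P1 as tested (black), with length trends removed (blue) and without E15.5 replicate 3 (orange). Long genes are lowest and short genes highest in E15.5 replicate 3, and Tet1 and Tet2 stay at or above 0.78 in all 3 fits.

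Per kilobase, Tet3 exceeded Tet1 in every library. The ratio of Tet3 to Tet1 was 1.78 to 1.90 in P1 libraries, 2.16 to 2.31 in P14 libraries, 2.54 to 2.86 in P7 libraries, 3.30 to 4.49 in E15.5 libraries and 3.72 to 8.38 in MB. The 3 postnatal ranges did not overlap each other and lay below those of E15.5 and MB. P7 also differs from P1 and P14 in counting set. The ratio of Tet3 to Tet2 was 1.74 to 1.96 at P1, 1.90 to 2.29 at P14 and 2.16 to 3.81 at P7. It was 3.80 to 4.37 at E15.5 and 1.83 to 4.72 in MB, which overlapped every age. Over the libraries the closest genes were Klhl11 (Pearson r 0.97), Rc3h1 and Lpp for Tet1, Phlpp2 (0.97), Bbx and Sbno1 for Tet2, and Bahcc1 (0.97) and Gse1 for Tet3. Tet1 and Tet2 had r 0.77 with each other.

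The readers Mbd2 and Mbd3 were low at P1. Mbd2 (ENSMUSG00000024513) has a 3-exon transcript model of 1290 bases at chr18:70727988-70742566 (mm9, plus strand). The longest reference transcript has 7 exons, so the Mbd2 level is taken to cover the gene in part. Its libraries held 24.8, 20.9 and 28.1 CPM at E15.5, 11.8, 12.2 and 12.1 at P1, 15.02, 29.4 and 18.6 at P7, and 16.8, 18.4 and 15.3 at P14. In MB they held 31.0, 15.6 and 13.3 CPM, with MB replicate 1 the highest of all libraries. The P1 libraries were below all others, and Mbd2 fell by 1.04 (log2, SE 0.30, edgeR FDR 0.0119) from E15.5. That call was lost with length trends removed (-0.69, FDR 0.102) and within the counting set (-0.80, FDR 0.0647). The rise to P7, 0.81 (SE 0.30, FDR 0.154), was not called.

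Mbd3 (ENSMUSG00000035478) was counted in the start site table under a 6-exon transcript of 914 bases in the GRCm38 annotation, shorter than the 7-exon, 1662-base transcript of the gene. Its libraries held 126, 109 and 167 CPM at E15.5, 48.2, 37.9 and 40.7 at P1, 88.2, 106 and 103 at P7, and 57.1, 58.6 and 62.3 at P14. In MB they held 77.6, 137 and 114 CPM. The 4 ages did not overlap each other (any difference among ages, FDR 6.18e-05, with 54.1% of that table called), and MB overlapped E15.5 and P7. Mbd3 fell by 1.66 (log2, SE 0.21, edgeR FDR 2.55e-05) from E15.5 to P1 (44.8% of the 16354 rows of that table called) and rose by 1.23 (SE 0.21, FDR 0.0129) to P7 (2.8% called). It fell by 0.74 (SE 0.21, FDR 0.0379) from P7 to P14 (9.47% called), and was 0.88 higher (SE 0.21, FDR 0.00250) in MB than at P14 (48.9% called). Against P7 the MB difference was 0.15 (SE 0.21, 33.5% of rows called), and P14 against P1 gave 0.49 (SE 0.21, FDR 0.146, 8.17% called). The fall to P14 was lost when any of its 6 libraries was left out (-0.85 to -0.69), and the rise to P7 without P1 replicate 2 (1.15) or P7 replicate 2 (1.18). The difference between P1 and P14 was called in the fit of those groups only (0.47, FDR 0.0285) and within the counting set that holds both (0.48, FDR 0.0467). Within that set the change from E15.5 to P1, with 1 E15.5 library, was -1.40 (FDR 0.000335) and MB against P14 1.11 (FDR 0.000137). The 2 steps that involve P7 are those where counting set and age cannot be told apart. Length trends were not removed in the start site table, so their part in the change of this short model from E15.5 to P1 was not tested. Without E15.5 replicate 3, the highest Mbd3 library, that change was -1.48 (edgeR FDR 0.000144).

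Of the 13 NuRD partners, all tested, 4 fell from E15.5 to P1 (list median -0.32, over all genes 0.031): Chd5 (-2.36) and Chd3 (-1.39), remodelling ATPases, Hdac2 (-0.87), a deacetylase, and Mta2 (-0.71). From P1 to P7 Chd3 rose by 1.15, a call lost when any of 5 libraries was left out, and from P7 to P14 Hdac1 (-1.12) and Mta2 (-0.59) fell, calls lost without single libraries. Against P14, 8 rose in MB and 1 fell (list median 0.59), led by the main ATPase Chd4 (0.95), Mta2 (0.88) and Mta1 (0.85), with Chd5 lower (-0.83, lost in 4 alternatives). Against P7, Chd5 (-1.51) and Chd3 (-0.85) fell and no other gene was called. The number called was 5 without MB replicate 1, with length trends removed or with DESeq2, and 1 without P7 replicate 1. Over all genes, 46.3% were called from E15.5 to P1, 3.15% from P1 to P7 and 10.3% from P7 to P14. In MB, 34.5% of all genes were called against P7 and 50% against P14. Of the other methyl-CpG readers, 8 of 10 were tested. Zbtb4 was lower in MB against P7 (-1.09) and P14 (-1.23), Uhrf2, the relative of Uhrf1, was 0.79 higher in MB than at P14, and Zfp57, which keeps methylation at imprinted genes, fell by 0.88 from E15.5 to P1. The Zbtb38 call in that step (0.64) was lost in 10 alternatives.

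The base excision and demethylation list, which completes what the Tet enzymes begin, had all 14 genes tested. From E15.5 to P1, where 46.3% of all genes were called, 3 rose and 5 fell (list median -0.041). Gadd45b (1.45) and the glycosylase Ung (0.95) were among the risers. The polymerase Polb (-1.40) and the endonuclease Apex1 (-1.04) were among the fallers. The 8 calls became 5 without P1 replicate 3, where Gadd45b was at 0.93 (FDR 0.0691), and 3 within the counting set, where Gadd45b (1.65, FDR 0.0875) and Apex1 (-0.62, FDR 0.129) were not called. From P7 to P14, where 10.3% of all genes were called, 5 fell. Gadd45b, a stress- and activity-induced gene, rose by 1.53. The fallers included Tdg (-1.20), the glycosylase that removes the products of Tet oxidation, with Neil3 (-1.04) and Ung (-0.89); with single libraries left out 0 to 5 of the 6 were called, with 0 without P7 replicate 2 or P14 replicate 2. In MB against P14, 6 of the 14 rose and 1 fell, with Ung at 1.68, Neil3 at 1.605, Tdg at 1.504 and Apex1 at 1.41. Over all genes, 50% were called against P14 and 34.5% against P7. Against P7, Ung rose (0.79, lost within the counting set at 0.59) and Polb fell (-0.70, lost in 6 alternatives).

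Methyl donor genes, which make S-adenosylmethionine, rose in MB: 5 of 8 against P7 (list median 0.81, over all genes 0.019) and 5 against P14. Over all genes, 34.5% were called against P7 and 50% against P14. Mat2a, the catalytic subunit of the enzyme that makes the donor, rose by 1.70 against P7, with Shmt1 at 1.68, Shmt2 at 1.29 and Mat2b at 0.84. The Shmt2 difference was -0.35 within the counting set that MB replicate 1 shares with P7, which leaves 1 MB library. From E15.5 to P1 Mtr, methionine synthase, rose by 1.44, and Shmt1 fell by 0.95 from P1 to P14, a call lost without any 1 of 5 libraries. Of 7 CXXC proteins, which bind unmethylated CpG, Cxxc4 rose in MB against P7 (1.57) and against P14 (1.94). Against P14, where 50% of all genes were called, 4 of the 7 rose in all (list median 0.58). Cxxc5 was at 0.74, Kdm2a at 0.58 and Cxxc1 at 0.48, the last lost in 10 alternatives. Without MB replicate 2, 1 of the 4 calls was left. Kdm2b (-0.39) fell from E15.5 to P1, a call lost in 10 alternatives. In that step 46.3% of all genes were called.

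Of 10 germline genes known to be silenced by promoter methylation, only 4 passed the filter on low counts, so the count of calls is not read as support. Sycp1, a synaptonemal complex protein, had 1 count in the 3 E15.5 libraries together and 447 at P1. The ratio of scaled counts was 431 (exact 95% interval 77.0 to 17073, counting error only, as reads are not independent molecules). Its levels were 5.16 to 6.65 CPM at P1, 3.08 to 4.47 at P7, 2.26 to 3.61 at P14 and 0 to 7.005 in MB. Sycp3, of the same complex, had 14 counts at E15.5 and 91 at P1 (2.48, log2, edgeR FDR 0.0198), a call lost within the counting set and without E15.5 replicate 1 or 3. The list summed to at most 9.96 CPM in any library.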

How the data were processed

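Poly(A) RNA of 15 libraries was measured by RNA-seq. The authors deposited raw read counts in 3 tables per library: per gene, per start site model and per transcript, the gene table having the line format of HTSeq. Trimmomatic, TopHat, StringTie, HTSeq and mm9 are named in the submitters' processing notes, without versions or roles, and the strand setting is not given in the sources used here. In the gene table, 39.5% to 55.4% of a library's records were counted in genes, and the 5 summary lines were left out.

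Gene counts were tested with edgeR 4.0.16 in R 4.3.3: filterByExpr (minimum count 10, minimum total 15), which left 15259 of 21889 genes, TMM scaling, 1 mean per group over 15 libraries (10 residual degrees of freedom), the quasi-likelihood F-test and Benjamini-Hochberg adjustment (FDR) over all genes tested. Mbd3 was tested in the same way in the start site table (16354 rows). The SE of a log2 fold change is its absolute value divided by the square root of F, so it was derived from the test. The scripts were tested on simulated data. log2 CPM used a prior count of 2. The members and the lists were chosen with earlier results of these data known. Besides the members, genes were named by rule: up to 4 called genes per list and comparison with the largest changes, and for each member the 3 genes of highest Pearson r; Sycp1 levels and Mbd3 calls are given besides. Some genes that the rule names are not reported here. Alternatives were DESeq2 1.42.0, RLE scaling, other filters, the other count tables, a fit of the groups compared only, the replicate block, counting sets, single libraries left out and, added after the data were seen, removal of length trends. Positions, exons and lengths per kilobase are those of the mm9 models in the deposited transcript counts, and promoters are RefSeq on GRCm38.p6. The models behind the gene counts are not given in the sources used here, so they may cover other exons. Gene counts were 77.7% to 88.4% of those of the most counted transcript model for Dnmt3b, and 82.4% to 91.6% for Uhrf1. The promoter of Mbd2 was not used here.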

Additional observations from a re-analysis of the deposited data

How the results depend on the processing

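The number of members called stayed within 1.5 times of that reported in 99 of 115 alternative counts. From E15.5 to P1 it went from 3 to 1 in the start site table, which holds 5 of the members, and to 0 within the counting set, where 1 E15.5 library is left. From P7 to P14 it went from 2 to between 0 and 1 with single libraries left out, and from P1 to P14 from 2 to between 0 and 2. Fitted on the P1 and P14 groups only, 4 were called there, Dnmt3b (-0.57) and Mbd2 (0.48) being added. In MB against P7 it went from 2 to 4 with length trends removed, Tet3 (1.04) and Tet2 (0.80) being added. For any difference among the 4 ages it went from 5 to 3 in the start site table, and to between 3 and 5 with single libraries left out, with 3 without E15.5 replicate 1. The cause of these shifts was not tested, apart from the fewer members or libraries named.

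Replicate numbers did not pair the libraries: 6 of 18 same-number pairs had a correlation over 0.1 (range -0.239 to 0.332), and in no comparison did all pairs. With the replicate block 3, 0, 2, 2, 2 and 3 members were called in the 6 comparisons, as without it, and 4 rather than 5 among the 4 ages; the Mbd3 fall to P14 was no longer called (FDR 0.0528).

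Changes of sign among members occurred only for uncalled differences. Tet3 from E15.5 to P1 turned to -0.28 within the counting set, to -0.17 with length trends removed, and ranged from -0.23 to 0.42 with single libraries left out. Dnmt1 from P1 to P7 was -0.0095 with RLE scaling and with DESeq2, -0.019 with a mean of at least 5 CPM and -0.045 with length trends removed (-0.14 to 0.14 with libraries left out). In MB against P7, Dnmt3a was 0.0053 with RLE scaling and DESeq2, 0.019 in the fit of those groups and 0.18 with length trends removed (-0.13 to 0.10), and Dnmt3b was 0.014 with RLE scaling and DESeq2, 0.019 in the fit of those groups, 0.23 within the counting set and 0.022 with length trends removed (-0.15 to 0.13). Mbd2 was 0.55 within the counting set for MB against P7 (-0.54 to 0.25) and -0.22 for MB against P14 (-0.22 to 0.47), and Mbd3 was -0.30 for MB against P7 (-0.019 to 0.34). With libraries left out, Dnmt3b from E15.5 to P1 ranged from -0.28 to 0.085, Mbd2 from P7 to P14 from -0.54 to 0.0023 and Tet1 from -0.12 to 0.24, and from P1 to P14 Dnmt3a from -0.083 to 0.15 and Tet3 from -0.11 to 0.22. Of the list genes named by rule, Shmt2 (-0.35) and Plk1 (-0.026), both in MB against P7, turned within the counting set. Plk1 is of the G2 and mitosis list. Counting sets could not be compared for steps from or to P7 among the ages. With the length of the longest model, Uhrf1 levels per kilobase rose alike in all groups, to 28.6 at P14 and 95.8 in MB.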
